A study of Mus musculus with 15 samples.

Results

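The 8 genes described here belong to the nitric oxide, cyclic GMP (cGMP) and protein kinase G pathway of Purkinje cells (PCs) and to the phosphatase inhibitors at its end: *Gucy1a1*, *Gucy1b1*, *Prkg1*, *Ppp1r17*, *Ppp1r1b*, *Ppp1r1a*, *Pde5a* and *Pde1b*. They were chosen by their place in this pathway, with earlier results of these data known. They are the rows whose Ensembl identifier carries these symbols in the GENCODE M21 annotation. They make up 8 of 38561 gene identifiers, of which 20928 had a count in any library. All 8 passed the filter on low counts and were among the 14293 genes tested. RNA was sequenced from PCs that had been cut from mouse cerebellum by laser capture on postnatal days 0, 4, 8, 14 and 21 (written P0 to P21), in 3 biological replicates at each age, which gave 15 libraries. The animals were untreated, the strain is spelled C56/BL6 in the labels of every group and C57/BL6 in the methods of the study, and no allele or agent differs between groups. From P4 on each sample held 1000 PC soma from a few sections per mouse, whereas at P0 clusters of PCs were taken, so age and manner of capture cannot be told apart between P0 and the later time points.

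Nitric oxide binds soluble guanylate cyclase, which then makes cGMP. cGMP switches on the kinase encoded by *Prkg1*, and this kinase phosphorylates G-substrate, the product of *Ppp1r17*, which in its phosphorylated form inhibits protein phosphatases. In PCs this chain is known for its part in long-term depression at the synapse from parallel fibers, and phosphodiesterases end the signal by cleaving cGMP.

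Total counts on genes ranged from 3409371 to 7814951 per library. The 4 PC markers *Calb1*, *Pcp2*, *Pcp4* and *Car8* were detected at every time point, and their summed level, in counts scaled to library size (CPM), lay between 4397 and 5819 in the P0 libraries and between 9300 and 16100 in those of P4. It lay between 15250 and 17710 at P8, between 26040 and 29440 at P14, and between 28920 and 38690 at P21. P4 replicate 2 had both the highest total count of the series and the highest PC marker sum of its time point. The sum of 8 markers of Bergmann glia and astrocytes, none of them at 0, was 4007 to 5627 CPM at P0 and 5343 to 9060 CPM at P4. It was 8209 to 9825 CPM at P8, 6307 to 6648 CPM at P14 and 3147 to 4747 CPM at P21. The part of these glia in the courses of the 8 genes was not tested. In bulk RNA, fewer cells of a type and less RNA per cell cannot be told apart.

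Of the 8 genes, 4 rose with postnatal day, 3 fell and 1 was not called, by edgeR's quasi-likelihood test with Benjamini-Hochberg adjustment over all genes. Across all genes tested, 12.1% rose and 14.1% fell. A test for any difference between time points called 6 of the 8, against 19.3% of all genes. For 3 of the 8, every P14 and P21 library lay above every P0 and P4 library, and for 2 every late library lay below every early one. These patterns held for 8.24% and 7.14% of all genes, respectively. The genes that rose were the kinase, G-substrate, DARPP-32 and the cGMP-specific phosphodiesterase. Those that fell were inhibitor-1, the calmodulin-dependent phosphodiesterase and the alpha subunit of the cyclase.

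**Figure D1:**
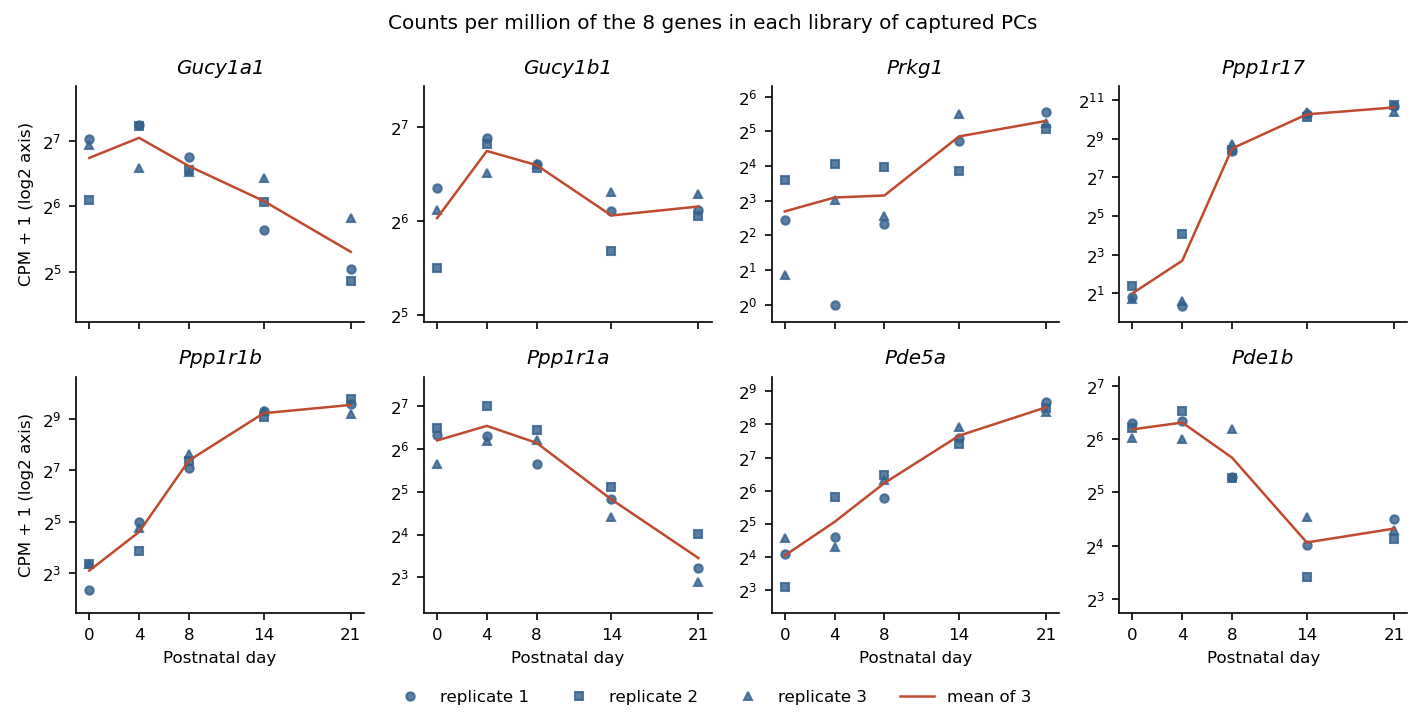
Level of each of the 8 genes in every library, as CPM with 1 added on a log2 axis (a different range in each panel), against postnatal day. Points are libraries, with a symbol for each replicate number, and the line joins the means of 3. *Ppp1r17* is near the bottom of its axis at P0 and P4 except for P4 replicate 2, and reaches 1352 to 1695 CPM at P21.

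**Figure D2:**
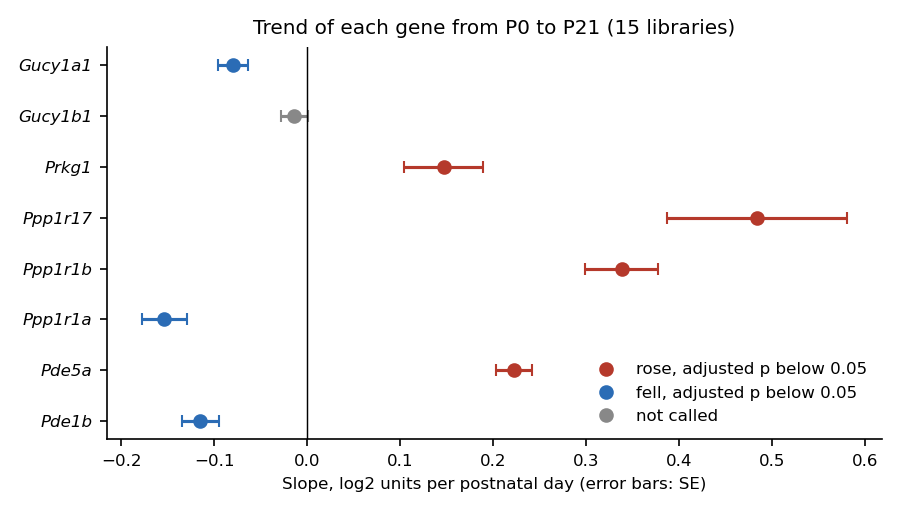
Slope of each gene in log2 units per postnatal day over 15 libraries, with its standard error (SE), coloured by the call at an adjusted p below 0.05. *Ppp1r17* has the steepest rise (0.48) and *Ppp1r1a* the steepest fall (-0.15) of the 8, and *Gucy1b1* is the gene without a call.

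Compared as RPKM values, which divide the share of counts by the exon length in kilobases, the order of the 8 genes at P21 was different from that at P0. That length takes in all annotated exons of a gene, so levels of different genes compare only under this choice. At P0, *Ppp1r1a* was highest at 61.65 ± 18.0 RPKM (SD, n = 3), above *Gucy1b1* at 18.3 ± 5.15, *Gucy1a1* at 17.0 ± 5.30 and *Pde1b* at 14.8 ± 1.36, whose ranges overlapped. *Ppp1r1b* followed at 2.89 ± 1.18 RPKM, then *Pde5a* at 1.76 ± 0.874, *Ppp1r17* at 0.629 ± 0.337 and *Prkg1* at 0.5615 ± 0.541, each overlapping its neighbour. At P21, *Ppp1r17* was highest at 783 ± 84.4 RPKM, followed without overlap by *Ppp1r1b* at 220.3 ± 39.3, *Pde5a* at 32.5 ± 3.57 and *Gucy1b1* at 15.6 ± 1.73. *Ppp1r1a* at 6.59 ± 2.84 RPKM came next, and its range overlapped that of *Gucy1a1* at 4.85 ± 1.97. The lowest places at P21 were held by *Prkg1* at 3.096 ± 0.576 RPKM and *Pde1b* at 3.07 ± 0.466, which overlapped.

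The genes lie on 5 chromosomes in GRCm38. *Gucy1a1* (ENSMUSG00000033910, chr3:82092427-82145789, minus strand) and *Gucy1b1* (ENSMUSG00000028005, chr3:82032006-82074689, minus strand) are neighbours on the same strand, 17737 bases apart with no protein-coding gene between them. *Pde1b* (ENSMUSG00000022489, chr15:103503034-103530052, plus strand) and *Ppp1r1a* (ENSMUSG00000022490, chr15:103530279-103538003, minus strand) end tail to tail with 226 bases between them. *Pde5a* (ENSMUSG00000053965, chr3:122728947-122859374, plus strand) lies elsewhere on chromosome 3, *Prkg1* (ENSMUSG00000052920) at chr19:30564489-31765033 on the minus strand, *Ppp1r17* (ENSMUSG00000002930) at chr6:56017497-56032689 on the plus strand and *Ppp1r1b* (ENSMUSG00000061718) at chr11:98348404-98357796 on the plus strand. The longest exon stretch that *Ppp1r1b* shares with the antisense gene *1700003D09Rik* is 215 bases, and that gene had 17 counts in the 15 libraries together. *Pde5a* shares an exon stretch of at most 55 bases with the antisense gene *4930447N08Rik*, which had no row in the counts. *Cstf2t* lies inside *Prkg1* on the opposite strand without a shared exon base. The strand setting of the authors' counting is not given in the sources used here.

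The 250 bases before the start site are printed for the 3 genes whose window ended at or before the first base of the gene. Of these, *Prkg1* rose, *Pde1b* fell and *Gucy1b1* was not called. *Ppp1r17*, *Ppp1r1b* and *Ppp1r1a* had no window, and those of *Pde5a* and *Gucy1a1* reached past that base. Of 2 windows of *Prkg1* and 3 of *Pde1b*, the window nearest the first base was used. Sequences are from RefSeq on GRCm38.p6, in the direction of the gene, at chr19:31765034-31765283 (minus), chr15:103502784-103503033 (plus) and chr3:82074712-82074961 (minus). Capitals mark matches, on either strand, to the GC box GGGCGG, the CCAAT box CCAAT or the core TGACG of the cyclic AMP response element, and AGGTCA, the site letters of the ROR receptors, was searched as well.
*Prkg1*: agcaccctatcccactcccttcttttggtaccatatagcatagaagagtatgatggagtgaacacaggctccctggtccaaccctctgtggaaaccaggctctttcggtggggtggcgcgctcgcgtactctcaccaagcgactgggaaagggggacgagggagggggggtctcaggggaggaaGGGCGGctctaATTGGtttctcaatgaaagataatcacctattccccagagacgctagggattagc
*Pde1b*: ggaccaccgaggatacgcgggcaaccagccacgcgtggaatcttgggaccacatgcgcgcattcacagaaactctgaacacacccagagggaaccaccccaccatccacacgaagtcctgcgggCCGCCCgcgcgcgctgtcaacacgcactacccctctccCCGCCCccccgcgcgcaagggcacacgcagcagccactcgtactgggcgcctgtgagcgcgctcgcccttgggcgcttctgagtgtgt
*Gucy1b1*: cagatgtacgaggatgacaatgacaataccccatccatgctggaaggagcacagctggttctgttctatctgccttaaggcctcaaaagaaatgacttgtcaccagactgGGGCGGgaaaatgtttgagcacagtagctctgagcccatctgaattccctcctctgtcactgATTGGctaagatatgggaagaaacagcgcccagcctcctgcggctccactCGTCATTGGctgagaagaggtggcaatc

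The window of *Prkg1* held 1 GC box and 1 CCAAT box, that of *Pde1b* 2 GC boxes, and that of *Gucy1b1* 1 GC box, 2 CCAAT boxes and 1 TGACG, which shares a base with a CCAAT box. Among 32851 windows of the same length, 32.7% held a GC box, 33.85% a CCAAT box, 17.8% TGACG and 14.02% AGGTCA, which was in none of the 3 windows. G and C made up 67.2% of the *Pde1b* window, 55.2% of that of *Prkg1* and 51.2% of that of *Gucy1b1*, against a median of 52.4% and quartiles of 45.2% and 61.2% over all windows. The *Pde1b* window also held 26 CpG dinucleotides, against 9 for *Prkg1* and 5 for *Gucy1b1* and a median of 6. A match of letters is a description and not a binding site.

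Soluble guanylate cyclase, the receptor of nitric oxide, is a dimer of an alpha and a beta subunit. For *Gucy1a1*, the alpha 1 subunit, the 3 libraries held 129, 67.7 and 121 CPM at P0, 150.1, 149 and 95.6 at P4, and 107, 93.5 and 91.15 at P8. The values were 49.0, 65.7 and 85.6 CPM at P14 and 32.05, 28.0 and 55.4 at P21. All P21 libraries were below all libraries of P0, P4 and P8, whereas P14 replicate 3 lay within the range of P0. *Gucy1a1* fell by 0.080 log2 units per day (SE 0.016, adjusted p = 0.00108, edgeR), and its mean at P0 was 2.76 times that at P21. With log2(day + 1) in place of the day its adjusted p was 0.0531.

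*Gucy1b1*, the beta 1 subunit that every nitric oxide-sensitive cyclase dimer needs, held 80.6, 44.25 and 68.1 CPM at P0, 117, 112 and 90.1 at P4, 96.8, 93.9 and 96.4 at P8, 67.9, 50.4 and 78.5 at P14, and 68.1, 65.2 and 77.2 at P21. The 6 libraries of P4 and P8 were all above the other 9. Neither test called it: the slope was -0.014 (SE 0.015, adjusted p = 0.527), and the test of any difference gave an adjusted p of 0.129 (edgeR). The sign of this slope was positive on the log2(day + 1) scale, again without a call. A course with its highest values in the middle is one that a slope over days does not describe. The glial marker sum also had its highest mean in the middle, 9202 CPM at P8.

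Within each library the alpha 1 subunit thus lost ground to the beta 1 subunit. The log2 ratio of the RPKM values of *Gucy1a1* to *Gucy1b1* was -0.14, -0.22 and 0.0034 at P0, -0.47, -0.41 and -0.74 at P4, and -0.68, -0.83 and -0.91 at P8. It was -1.30, -0.44 and -0.70 at P14 and -1.91, -2.05 and -1.31 at P21. Every P21 library was below every P0, P4 and P8 library, P14 replicate 1 lay just above the highest P21 library, and the other P14 libraries lay within the range of P4. Late libraries were lower than early ones by 0.95 log2 units (6 P14 and P21 libraries against 6 P0 and P4 libraries, exact two-sided permutation test, adjusted over 4 pairs, p = 0.0130). Without P0 the difference was -0.74 with an adjusted p of 0.131, over 3 early libraries in place of 6.

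The summed level of 7 markers of pericytes and smooth muscle, cells that also use the cyclase and *Prkg1*, was lower at P21 than P0. So was *Gucy1a1*, whereas *Prkg1* was higher. From P4 to P8 the mean of this sum went up, from 118 to 151 CPM, and that of *Gucy1a1* went down, from 131.5 to 97.15 CPM. The ranges of the sum overlapped there, and the step of *Gucy1a1* was not called (adjusted p = 0.710, edgeR). After P8 both means went down, the sum to 65.6 CPM at P14 and 35.1 at P21, and *Gucy1a1* to 66.8 and 38.5 CPM. The sum was 76.2 to 167 CPM at P0, 46.6 to 202 at P4, 90.0 to 212 at P8, 61.5 to 69.1 at P14 and 13.35 to 58.45 at P21. *Rgs5* gave most of it, *Myh11* was at 0 in all P0 libraries, *Tagln* at P4, and *Kcnj8* and *Acta2* at P21. The part of these cells in the course of *Gucy1a1* was not tested.

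*Prkg1* encodes cGMP-dependent kinase I, the main cGMP kinase of PCs. It was low at the early time points, with 23, 56 and 4 counts at P0, 0, 120 and 41 at P4, and 20, 77 and 27 at P8. At P14 it had 139, 70 and 233 counts and at P21 137, 154 and 231. In CPM this was 0.811 to 11.1 at P0, 0 to 15.5 at P4, 4.03 to 14.7 at P8, 13.4 to 44.7 at P14 and 32.6 to 45.7 at P21. All P21 libraries were above all libraries of P0 to P8, but P14 replicate 2 lay within the range of P4 and P8.

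The library without a *Prkg1* count, P4 replicate 1, allows a level of up to 0.788 CPM of its gene counts, the level of 3 counts, which covers counting error only. The replicates of a time point differed widely: at P4 the SD of 7.775 CPM was above the mean of 7.52. *Prkg1* rose by 0.15 log2 units per day (SE 0.043, adjusted p = 0.0157, edgeR), and its mean at P21 was 7.06 times that at P0. This fold was 14.7 without P0 replicate 2, the highest of the P0 libraries. No step between neighbouring time points was called for it, and the test of any difference gave an adjusted p of 0.179. The trend stayed called with each library left out, the highest adjusted p being 0.0406.

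*Ppp1r17* encodes G-substrate, a target of cGMP-dependent kinase that in the cerebellum is known from PCs. Its counts were 4, 8 and 3 at P0 and 1, 120 and 3 at P4. They were 1607, 1772 and 2316 at P8, 6821, 5781 and 6895 at P14, and 5044, 8002 and 8444 at P21. The transcript was thus close to the floor of 3 counts in 5 of 6 libraries of P0 and P4, and P4 replicate 2 alone held 120 counts, which was 15.5 CPM against 0.245 and 0.514 in the other P4 libraries.

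From P8 on every library had over 300 CPM of *Ppp1r17*: 324, 338 and 419 at P8, 1256, 1107 and 1324 at P14, and 1684, 1695 and 1352 at P21. No library of a later time point overlapped one of an earlier time point from P8 to P21. The step from P4 to P8 was 5.91 log2 units (SE 0.77, adjusted p = 6.31e-04, edgeR). The slope over all days was 0.48 log2 units per day (SE 0.097, adjusted p = 9.21e-04). P0 and P4 rest on few counts, and the size of the slope moved with the method: it was 0.21 with limma-voom (adjusted p = 0.00458) and 0.33 without P0 (adjusted p = 0.0194).

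P4 replicate 2 decided whether the step of *Ppp1r17* from P8 to P14 was called. With all libraries the step from P8 to P14 was 1.77 log2 units (SE 0.62, adjusted p = 0.174). Without P4 replicate 2 it was 1.77 with an SE of 0.19 and an adjusted p of 2.35e-04, and the step from P4 to P8 was 9.73 (SE 0.39). DESeq2 gave *Ppp1r17* no p-value for the trend, and the library with the largest Cook's distance in that fit, its measure of an outlying count, was P8 replicate 3 (7.20). That distance is taken from a straight line over days. P8 replicate 3 held 419 CPM, against 324 and 338 in the other P8 libraries.

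*Ppp1r1b* encodes DARPP-32, best known as a phosphatase 1 inhibitor of dopamine-receptive neurons of the striatum and also a target of cGMP-dependent kinase. It held 4.04, 9.33 and 9.32 CPM at P0, 30.7, 13.5 and 25.7 at P4, and 133, 164 and 198 at P8. It held 621, 528 and 629 CPM at P14 and 766, 875 and 582 at P21. From P0 to P14 the ranges of neighbouring time points did not overlap, and only P14 and P21 did.

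The rise of *Ppp1r1b* was called in 3 steps, the most of any of the 8 genes. It was 1.61 log2 units from P0 to P4 (SE 0.33, adjusted p = 0.0183), 2.84 from P4 to P8 (SE 0.32, adjusted p = 1.94e-04) and 1.84 from P8 to P14 (SE 0.30, adjusted p = 0.00319). The slope was 0.34 per day (SE 0.039, adjusted p = 3.71e-06, and 0.23 with limma-voom), and the mean at P21 was 98.0 times that at P0. The earliest of these steps was lost without P0 replicate 1 (adjusted p = 0.0665), without P4 replicate 1 (0.0890) or without P4 replicate 3 (0.0511).

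*Ppp1r1a* encodes inhibitor-1, the relative of DARPP-32 that inhibits protein phosphatase 1 after phosphorylation by the cyclic AMP-dependent kinase. Its course ran the other way. It held 78.5, 89.1 and 48.6 CPM at P0, 77.8, 126 and 70.9 at P4, and 49.0, 85.7 and 73.2 at P8. At P14 it held 27.6, 33.7 and 20.4 CPM and at P21 8.35, 15.04 and 6.41. The 9 libraries up to P8 overlapped each other and lay above all P14 libraries, which in turn lay above all P21 libraries.

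*Ppp1r1a* fell by 0.15 log2 units per day (SE 0.024, adjusted p = 8.44e-05, edgeR), and its mean at P0 was 7.26 times that at P21. No single step was called: from P8 to P14 the difference was -1.35 (SE 0.39, adjusted p = 0.0855) and from P14 to P21 it was -1.45 (SE 0.40, adjusted p = 0.250).

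The summed level of 6 markers of molecular layer and Golgi interneurons also went down, from 370 to 593 CPM at P0 to 47.9 to 86.8 at P21, with *Slc6a5* at 0 in all P4 libraries. *Sst* gave most of it at P0, with a mean of 354 of 454 CPM. The mean of this sum was 231 CPM at P4 and 128 at P8, over days in which the libraries of *Ppp1r1a* overlapped. It was 123 CPM at P14 and 61.0 at P21, where the mean of *Ppp1r1a* was 27.2 and 9.93 CPM. The sum of 5 oligodendrocyte markers went up from 13.65 to 35.88 CPM at P0 to 396 to 845 CPM at P21, with *Mag* and *Mobp* at 0 at P0, *Mag* at P4 and *Mog* at P8, and the PC marker sum went up as well, over the same days as *Ppp1r17*, *Ppp1r1b*, *Pde5a* and *Prkg1*. The part of these sums in the courses of the 8 genes was not tested.

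The phosphatase inhibitors thus changed places. The log2 RPKM ratio of *Ppp1r1a* to *Ppp1r1b* was 5.41, 4.41 and 3.54 at P0, 2.50, 4.38 and 2.63 at P4, -0.27, 0.23 and -0.27 at P8, -3.32, -2.80 and -3.78 at P14, and -5.33, -4.69 and -5.32 at P21. Per kilobase it passed through equality at P8, where the mean was -0.11 ± 0.29 (SD, n = 3). This place depends on the exon lengths, 1306 bases for *Ppp1r1a* and 2928 for *Ppp1r1b*. Without division by length, *Ppp1r1b* was already higher at P8, with 165 ± 32.6 CPM against 69.3 ± 18.65. Late libraries were lower than early ones by 8.02 log2 units, and all 6 late libraries were below all 6 early ones (adjusted p = 0.00289, exact permutation test, the smallest unadjusted p it allows being 0.00217). Since *Ppp1r1a* alone was lower in all late libraries and *Ppp1r1b* alone higher, this p-value was fixed by them and adds no support.

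The ratio of *Ppp1r17* to *Ppp1r1a* was -6.54 ± 0.39 at P0 and -6.30 ± 2.51 in the P4 libraries (log2, SD, n = 3). It then was 1.98 ± 0.38 at P8, 5.09 ± 0.49 at P14 and 6.95 ± 0.50 at P21. P4 replicate 2 had -3.44, against -8.15 and -7.32 in the other P4 libraries. All late libraries were above all early ones, with a difference of 12.4 log2 units (adjusted p = 0.00289, exact permutation test). Here too the courses of the single genes fixed the p-value.

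**Figure D3:**
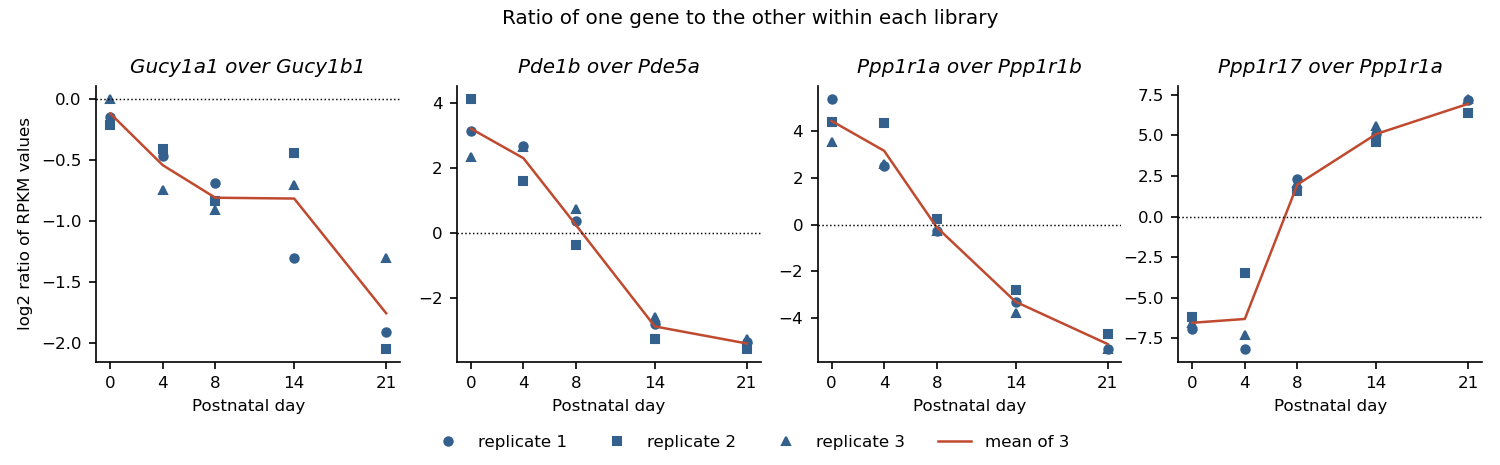
The log2 ratio of the RPKM values of the 4 pairs of genes within each library against postnatal day. Points are libraries, the line joins the means of 3, and the dotted line marks equal values. The ratios of *Pde1b* to *Pde5a*, *Ppp1r1a* to *Ppp1r1b* and *Ppp1r17* to *Ppp1r1a* change sign between P4 and P14, whereas *Gucy1a1* over *Gucy1b1* starts near equality and is between -2.05 and -1.31 at P21.

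Phosphodiesterases cleave the cyclic nucleotides. *Pde5a*, specific for cGMP and known as a target of cGMP-dependent kinase, held 16.0, 7.54 and 22.9 CPM at P0, 23.1, 55.25 and 18.5 at P4, and 54.0, 88.7 and 79.4 at P8. It held 192, 169 and 243 CPM at P14 and 409, 360.1 and 329 at P21. From P8 on the time points did not overlap, and at P4 replicate 2 stood above the others and within the range of P8.

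*Pde5a* rose by 0.22 log2 units per day (SE 0.019, adjusted p = 1.44e-07, edgeR), the smallest p of the 8 genes, and its mean at P21 was 23.7 times that at P0. The rise was spread over the whole course, with differences of 1.07, 1.19, 1.44 and 0.86 log2 units over the 4 steps and SEs of 0.41, 0.40, 0.40 and 0.39. None of the steps was called with all libraries, although that from P8 to P14 was without the filter on low counts (1.46, adjusted p = 0.0300). Without P4 replicate 2 the steps from P4 to P8 (1.84, adjusted p = 0.0334) and from P8 to P14 (1.44, adjusted p = 0.0216) were.

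*Pde1b*, a phosphodiesterase that is switched on by calcium and calmodulin and cleaves both cGMP and cyclic AMP, held 77.3, 73.2 and 64.05 CPM at P0, 80.2, 91.2 and 63.2 at P4, and 38.1, 37.4 and 72.0 at P8. It held 15.1, 9.58 and 22.3 CPM at P14 and 21.7, 16.5 and 18.6 at P21. All late libraries were below all libraries of P0 to P8, and P14 and P21 overlapped. At P8, replicate 3 was within the range of the earlier time points and the other replicates were below it.

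*Pde1b* fell by 0.115 log2 units per day (SE 0.020, adjusted p = 2.74e-04, edgeR). The fall was called in 1 step, from P8 to P14, at -1.65 (SE 0.37, adjusted p = 0.0256). This call was lost without P8 replicate 3 (-1.26, adjusted p = 0.146), without P14 replicate 1 (adjusted p = 0.114) and without P14 replicate 2 (adjusted p = 0.117).

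The log2 RPKM ratio of *Pde1b* to *Pde5a* was 3.14, 4.13 and 2.35 at P0, 2.66, 1.59 and 2.63 at P4, 0.36, -0.38 and 0.72 at P8, -2.80, -3.26 and -2.58 at P14, and -3.36, -3.57 and -3.27 at P21. At P0 the mean ratio corresponded to 9.21 times more *Pde1b* than *Pde5a* per kilobase, and at P21 to 10.6 times more *Pde5a*. The late libraries, all below all early ones, were lower by 5.89 log2 units (adjusted p = 0.00289, exact permutation test). Each gene alone already parted these libraries, in opposite directions, so this p-value was fixed and adds nothing to their trends.

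Counted over the 8 genes, 1 was higher at P4 than at P0 (1.74% of all genes were) and none lower (0.231%). From P4 to P8, 2 were higher (0.882%) and none lower (0.252%). From P8 to P14, 1 was higher (1.29%) and 1 lower (1.38%). From P14 to P21 edgeR called none of the 8 (0.063% of all genes were higher and 0.266% lower), and 3 of the 8 had an unadjusted p below 0.05 (*Ppp1r1a*, *Pde5a* and *Gucy1a1*), as did 7.02% of all genes. Leaving out 1 library moved the count from P8 to P14 between 1 and 4: it was 4 without P4 replicate 2, where *Ppp1r17* and *Pde5a* joined, and 1 without P8 replicate 3, P14 replicate 1 or P14 replicate 2.

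Over the 15 libraries, which share their time points and depth, Pearson's r of log2 CPM was 0.94 between *Ppp1r17* and *Ppp1r1b*, 0.93 between *Pde5a* and *Ppp1r1b* and 0.92 between *Pde5a* and *Ppp1r17*. It was 0.77 between *Ppp1r1a* and *Gucy1a1* and also 0.77 between *Ppp1r1a* and *Pde1b*. Between the cyclase subunits it was 0.58. Among 9731 genes with a mean of at least 10 CPM, those alike to *Ppp1r17* included *Gm13944* (r = 0.977) and *Psd2* (0.975). Those most alike to *Ppp1r1b* were *Got1* (0.987), *Atp2a3*, a calcium pump of the endoplasmic reticulum (0.986), and *Rora*, a nuclear receptor that PCs need to mature (0.984).

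For *Pde5a* the most alike genes were *Sorl1* (0.980), *Ywhah* (0.979) and *Ppp4r4* (0.979), and for *Prkg1* they were *Emb* (0.923), *Flt3* (0.912) and *Wnt3* (0.908). For *Pde1b* they were *Scube2* (0.949), *Hnrnpa2b1* (0.938) and *Stox2* (0.931), and for *Gucy1a1* *Pdlim3* (0.928), *Fkbp1b* (0.925) and *Tmem128* (0.913). Those of *Ppp1r1a* were *Svbp* (0.948) and 2 copies of the *Dynlt1* family, *Dynlt1-ps1* (0.961) and *Dynlt1f* (0.946), between which reads may be split. *Gucy1b1* had the weakest likeness of the 8, with *Mrm1* (0.872), *Ptprt* (0.855) and *Arl2bp* (0.825).

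The other genes of the pathway were looked at by lists, against the 12.1% of all genes tested that rose and the 14.1% that fell. Upstream, 3 of 4 genes around nitric oxide synthesis were tested. *Nos1ap*, the adaptor of the neuronal synthase, rose by 0.18 log2 units per day (SE 0.061, adjusted p = 0.0317), from 1.30 ± 1.38 CPM at P0 to 14.5 ± 10.4 at P21 (SD, n = 3), with a wide spread between replicates. *Nos1*, the neuronal synthase, was not called by the trend but was by the test of any difference (adjusted p = 0.00443), with 7.64 ± 3.04 CPM at P0, 6.04 ± 6.52 at P4, 52.8 ± 12.1 at P8 and 38.4 ± 5.49 at P21. The sum of 5 granule neuron markers was 318 to 546 CPM at P0 and 328 to 654 at P4. It was 610 to 1023 CPM at P8 and 331 to 555 at P21, whereas the interneuron sum went down. The part of other captured cells in the course of *Nos1* was not tested.

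Of 11 other guanylate cyclases and natriuretic peptides and receptors, 5 were tested and 1 was called by the trend. *Nppc*, the C-type natriuretic peptide, rose (slope 0.13, SE 0.039, adjusted p = 0.0148), from 6.45 ± 0.682 CPM at P0 to 63.1 ± 14.3 at P8 and 49.3 ± 10.8 at P21. *Gucy1a2*, the alpha 2 subunit that can take the place of alpha 1 in the dimer, was not called (slope 0.058, SE 0.034, adjusted p = 0.235). It lay below *Gucy1a1* at every time point, with 1.62 ± 0.545 RPKM against 4.85 ± 1.97 RPKM at P21.

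Of 22 other phosphodiesterases listed, 21 had a row and 13 were tested, and *Pde2a* was not analysed here. *Pde9a*, cGMP-specific like *Pde5a*, rose (slope 0.15, SE 0.018, adjusted p = 4.02e-06), from 39.0 ± 15.2 CPM at P0 to 313 ± 127 at P21. *Pde1c*, the relative of *Pde1b*, fell (slope -0.14, SE 0.025, adjusted p = 2.72e-04), and its level was 503 ± 33.4 CPM at P8 and 92.3 ± 56.6 at P14. *Pde7a*, specific for cyclic AMP, fell as well (slope -0.087, SE 0.031, adjusted p = 0.04555), as did *Pde4a* and *Pde4b*. Both calmodulin-dependent phosphodiesterases that were tested, *Pde1b* and *Pde1c*, therefore fell with postnatal day, and the cGMP-specific enzymes *Pde5a* and *Pde9a* rose.

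Downstream, 6 of 7 genes for cGMP kinase II and kinase substrates were tested, 3 rose and none fell, with a median slope of 0.061 log2 units per day against -0.0077 over all genes tested. The median was 0.12 for the genes around nitric oxide synthesis, 0.058 for the other cyclases and natriuretic peptides, -0.020 for the other phosphodiesterases, 0.0063 for the phosphatase core subunits, 0.0043 for the other inhibitors and -0.016 for the kinases of the inhibitors. *Itpr1*, the inositol trisphosphate receptor, rose from 177 ± 23.1 CPM at P0 to 6371 ± 209 at P21 (slope 0.21, SE 0.028, adjusted p = 1.74e-05), and the potassium channel *Kcnma1* from 111 ± 28.2 to 1011 ± 84.8 (slope 0.14, SE 0.014, adjusted p = 1.15e-06). *Rap1gap2* was the other gene that rose. *Prkg2*, the gene of kinase II, had 3 to 73 counts per time point over 3 libraries and was not called (adjusted p = 0.259). Of the 6 cGMP-gated channel genes, 5 had no count in any library, and none was tested.

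On the side of the phosphatases, the 7 core subunits of PP1 and PP2A included 1 that rose (*Ppp2cb*, slope 0.064, SE 0.013, adjusted p = 0.00154), 1 that fell (*Ppp2r1b*, slope -0.17, SE 0.041, adjusted p = 0.00445) and 5 not called. Of 17 other inhibitors and targeting subunits, 14 were tested, 4 rose and 2 fell, where 12.1% and 14.1% of all genes tested did. The largest rises were those of *Ensa*, an inhibitor of PP2A (slope 0.056, SE 0.0094, adjusted p = 2.10e-04), and *Ppp1r2*, inhibitor-2 (slope 0.053, SE 0.014, adjusted p = 0.00871). The falls were those of *Ppp1r14c* (slope -0.097, SE 0.025, adjusted p = 0.006235) and *Set*, an inhibitor of PP2A (slope -0.071, SE 0.0086, adjusted p = 6.22e-06). *Anp32a* and *Ppp1r11* also rose. The slopes of *Ppp1r17*, *Ppp1r1b* and *Ppp1r1a* were each larger in size than those of the 6 called here.

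Of the 8 subunits of kinases that phosphorylate the inhibitors, 3 rose and 3 fell. The rises were led by *Cdk5* (slope 0.050, SE 0.016, adjusted p = 0.0292) and *Prkaca*, the alpha catalytic subunit of the cyclic AMP-dependent kinase (slope 0.042, SE 0.011, adjusted p = 0.00684). The falls were led by *Prkar2b* (slope -0.072, SE 0.022, adjusted p = 0.0229) and *Prkacb*, the beta catalytic subunit (slope -0.047, SE 0.013, adjusted p = 0.00934). *Prkar1a* rose and *Cdk5r1* fell too. *Nos1*, *Gucy1a2*, *Prkg2* and the genes of these lists given without a slope were named after their values had been seen.

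**Figure D4:**
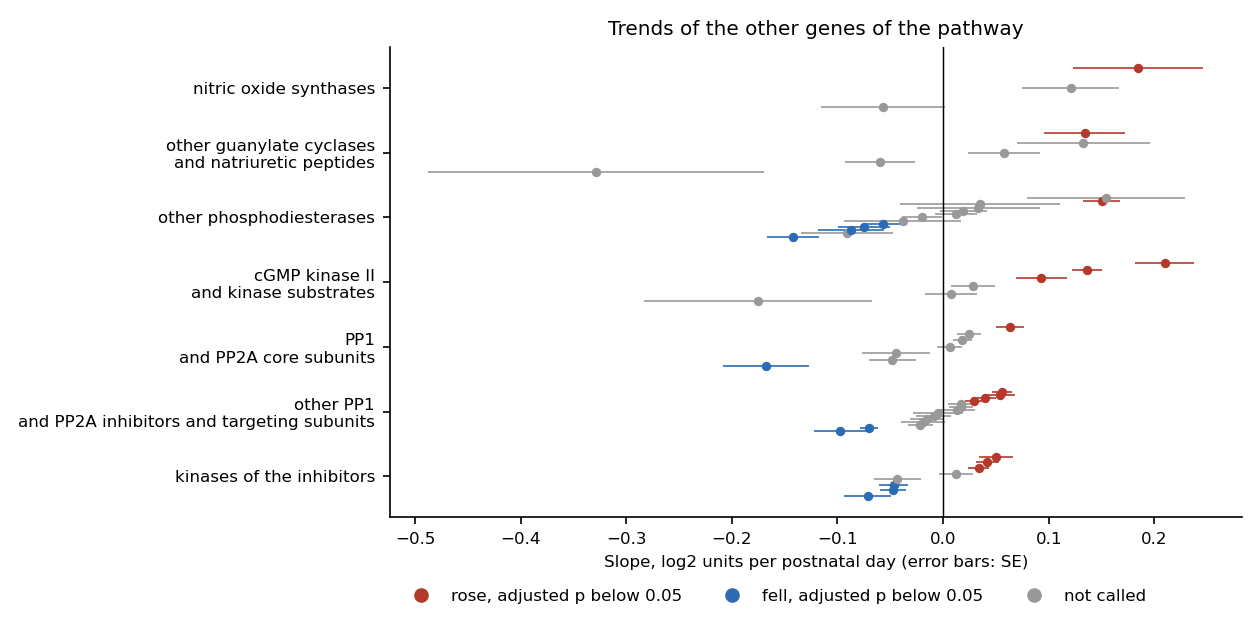
Slopes in log2 units per postnatal day, with SE, of the tested genes of 7 lists of other pathway genes, each point being a gene and coloured by its call at an adjusted p below 0.05. The rises of *Itpr1* (0.21) and *Nos1ap* (0.18) are the largest called, and the falls of *Ppp2r1b* (-0.17) and *Pde1c* (-0.14) the largest called downward.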

How the data were processed

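RNA from laser-captured PCs was amplified with the SMARTer Ultra Low kit and sequenced. Per the submitters' notes, the authors used cutadapt 1.2.1, GSNAP and HTSeq 0.5.3p9 on mm10 (GRCm38.p1), and deposited raw counts of unique reads per gene. Strand setting and annotation release are not given in the sources used here. Totals were 3409371 to 7814951 counts on genes, and 18.19% to 30.96% of reads were outside genes or ambiguous between genes and stayed out of all totals.

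Groups were the 5 time points. Genes were filtered by filterByExpr (14293 kept), scaled by TMM and tested with edgeR 4.0.16 (R 4.3.3, quasi-likelihood F test, Benjamini-Hochberg adjustment, threshold 0.05) for a slope over days, any difference and each step. SEs are the estimate over the square root of F. CPM used the TMM-scaled totals, and RPKM the exon length in GENCODE M21 and the unscaled counts on genes. Ratios had 0.5 counts added and an exact permutation test. limma 3.58.1 and DESeq2 1.42.0 gave alternatives. Correlations used log2 CPM with a prior count of 2. Scripts were tested on simulated data. P-values of the steps and of any difference rest on the spread between the samples of a time point. Those of the slope also take in departures from a straight line over days. The permutation test pools P0 with P4 and P14 with P21, so its spread includes differences between time points.

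The 8 genes and all lists were chosen with earlier results of these data known. Named from each list were up to 2 called genes in each direction with the largest slope, if their highest time point reached 5 CPM, and for each of the 8 genes the 3 genes most alike. An item that these rules would name is not reported here, and it was left out of the marker sum.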

Additional observations from a re-analysis of the deposited data

How the results depend on the processing

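The 7 called trends of the 8 genes kept their direction and call under each alternative that gave a value, except that of *Gucy1a1* on the log2(day + 1) scale (adjusted p = 0.0531), and DESeq2 gave no p-value for *Ppp1r17*. The uncalled slope of *Gucy1b1* changed sign on that scale, to 0.0088. Steps depended on single libraries. Leaving out 1 library in turn gave 0 to 1 of the 8 genes and 186 to 302 of all genes called from P0 to P4 (281 with all libraries), 2 to 3 and 74 to 201 from P4 to P8 (162), 1 to 4 and 163 to 441 from P8 to P14 (382), and 24 to 68 of all genes from P14 to P21 (47). The ratio of *Gucy1a1* to *Gucy1b1* was lower late by -0.74 without P0 (adjusted p = 0.131), and -1.12 to -0.80 with 1 library left out.

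Replicate numbers did not pair the libraries: the mean r of deviations was -0.00329 for the same number and 0.00165 for different numbers, and 7 of 15 libraries were most alike to their own number. With the replicate block 1723 genes rose and 1911 fell, against 1729 and 2021 without it, and 4 of the 8 genes rose and 3 fell. From P8 to P14 the block called 3 of the 8 genes against 2, *Ppp1r1a* being gained (adjusted p = 0.0372), and leaving out the filter also called 3, *Pde5a* being gained. Counts were low or uneven at P0 and P4 for *Prkg1*, with 0 to 120 per library, and for *Ppp1r17*, with 1 to 8 in 5 of those 6 libraries.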
